A study of Homo sapiens with 9 samples.

Results

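Drug efflux ABC transporters are membrane pumps that use ATP to move drugs, conjugated metabolites, steroids, bile acids, porphyrins and cyclic nucleotides out of the cell or between its compartments. The 10 genes described here were the rows of the gene table with the symbols *ABCC1*, *ABCC2*, *ABCC3*, *ABCC4*, *ABCC5*, *ABCC10*, *ABCC11*, *ABCB1*, *ABCB6* and *ABCG2*, out of 59452 symbols or identifiers in all. They were selected by symbol, with earlier results of these data known. Of these 10 genes, 8 passed the filter on low counts and were tested among 15528 genes. *ABCB1* and *ABCG2* did not pass.

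RNA was sequenced from MDA-MB-453, an established human triple-negative breast cancer cell line labelled as wild type, in 3 conditions with 3 libraries each, which the design describes as biological triplicates. Attached cells were grown in regular culture with vehicle (DMSO). Suspended cells were kept on plates coated with poly-HEMA, which prevents attachment, either with vehicle or with AT-0174 at 10 µmol/L, which inhibits the tryptophan-degrading enzymes TDO2 and IDO1. All cultures were collected at 48 hours, and attached cells with AT-0174 were not analysed here, so the inhibitor was compared with vehicle in suspended cells alone.

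The ABCC genes encode multidrug resistance-associated proteins, which export organic anions, many of them joined to glutathione, glucuronate or sulfate. *ABCB1* and *ABCG2* encode P-glycoprotein and the breast cancer resistance protein, the pumps best known for drug resistance in tumor cells. *ABCB6* encodes a porphyrin transporter. In breast, *ABCC11* is known as a gene of apocrine secretory cells, and the apocrine luminal character of MDA-MB-453 is well known.

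The 9 libraries held 36649997 to 48019126 estimated counts. Expression is given as CPM, the TMM-scaled counts relative to library size, and fold changes are log2 values from edgeR's quasi-likelihood test with standard error (SE) and Benjamini–Hochberg adjusted p over all 15528 genes, called at an adjusted p under 0.05. All 8 luminal apocrine markers passed the filter, with summed levels of 5650 to 5760 CPM in attached cells, 5950 to 6110 in the suspended vehicle group and 6030 to 6250 with AT-0174. Of the basal markers, 1 of 5 passed (*TP63*), and the list summed to 5.2 to 6.36 CPM across all libraries. Fibroblast markers passed in 1 of 6 cases, *COL1A1*, and *DCN* and *LUM* were at 0 in every library. Their sum was 131 to 149 CPM in attached cells, 112 to 114 in the suspended vehicle group and 107 to 114 with AT-0174, nearly all of it *COL1A1*. Of the leukocyte markers, *CD3E* was at 0 throughout, 1 passed (*CD68*), and the sum was at most 2.36 CPM. The 3 endothelial and 3 hepatocyte markers summed to at most 0.34 and 0.287 CPM. The part of these marker levels in the results below was not tested. In bulk RNA, fewer cells with a transcript and less of it per cell cannot be told apart.

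Promoter windows of *ABCB6* and *ABCC11* are printed first, because these were the called transporters of the first comparisons for which RefSeq promoters (GRCh38.p14, 250 bases before to 50 after a start site) were at hand. Entries were found for 8 of the 10 transporters, and *ABCC1* and *ABCC3* had none. Capitals mark matches, on either strand, to the core of the antioxidant response element bound by NRF2 (TGACNNNGC) or of the xenobiotic response element bound by the aryl hydrocarbon receptor (GCGTG). The *ABCB6* window (chr2:219218909-219219208, minus strand) held 1 match to the antioxidant core, at -152 from the start site, and none to the xenobiotic core. Of the 3 windows of *ABCC11*, that of the outermost start site (chr16:48247490-48247789, minus strand) held neither, and the next (chr16:48244539-48244838, minus strand) held 1 of each, separated by 1 base. Of 35116 promoters of the same length, 13.3% held the antioxidant core and 36.5% the xenobiotic core. A match is a description of letters and not a bound site.
ABCB6: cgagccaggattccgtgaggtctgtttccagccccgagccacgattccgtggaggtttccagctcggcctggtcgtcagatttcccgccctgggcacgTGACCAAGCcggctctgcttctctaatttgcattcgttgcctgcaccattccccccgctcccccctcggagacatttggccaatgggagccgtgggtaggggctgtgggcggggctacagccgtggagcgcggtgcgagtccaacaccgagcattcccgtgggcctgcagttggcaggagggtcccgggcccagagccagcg
ABCC11 outermost start: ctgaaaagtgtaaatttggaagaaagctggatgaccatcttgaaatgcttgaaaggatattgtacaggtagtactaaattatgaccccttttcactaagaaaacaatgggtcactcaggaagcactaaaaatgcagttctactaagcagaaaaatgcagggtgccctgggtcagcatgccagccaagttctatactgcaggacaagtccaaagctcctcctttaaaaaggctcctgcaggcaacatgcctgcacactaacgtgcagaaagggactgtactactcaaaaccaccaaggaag
ABCC11 second start: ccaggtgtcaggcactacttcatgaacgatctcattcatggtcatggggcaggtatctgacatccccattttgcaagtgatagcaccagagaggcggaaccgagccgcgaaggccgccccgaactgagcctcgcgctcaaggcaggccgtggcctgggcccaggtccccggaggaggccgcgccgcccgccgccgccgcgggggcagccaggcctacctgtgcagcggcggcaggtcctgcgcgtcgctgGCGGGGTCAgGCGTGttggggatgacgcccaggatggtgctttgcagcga

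Levels of different genes can be compared only per length, for which TPM, Salmon's length-corrected transcript abundance summed by gene, was used. TPM was not TMM-scaled, and changes between conditions were tested on counts. *ABCC11* had the highest level, at 71.8 ± 4.01 TPM in attached cells, 113 ± 5.54 in the suspended vehicle group and 99.5 ± 4.27 with AT-0174 (mean ± SD, n = 3 each here and below). *ABCC5*, which exports cyclic nucleotides and nucleotide analogs, followed at 65.5 ± 2.7, 73.3 ± 1.22 and 77.5 ± 3.13 TPM. Its log2 fold change in suspension from counts was only 0.01 (adjusted p = 0.817, edgeR). The porphyrin transporter *ABCB6* had 56.2 ± 2.15, 53.5 ± 2.63 and 62.9 ± 0.811 TPM, and *ABCC3*, which exports glucuronides and bile acids, 45.2 ± 4.99, 22.4 ± 1.2 and 36.3 ± 1.96 TPM. *ABCC1*, an exporter of glutathione conjugates and anthracyclines, had 22.8 ± 1.59, 21.6 ± 0.694 and 22.7 ± 0.625 TPM. *ABCC10*, known for taxane export, lay at 9.3, 10.1 and 8.42 TPM, and *ABCC2* and *ABCC4* lay below 1 TPM in all 9 libraries.

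The order of neighbours depended on the condition in 3 places. In attached cells *ABCC11* lay above *ABCC5* on average, at 67.3 to 75 against 62.9 to 68.3 TPM, with overlapping libraries, whereas in both suspended conditions the libraries were apart. In suspended cells with vehicle, *ABCC3* (21 to 23.3 TPM) overlapped *ABCC1* (21.2 to 22.4 TPM), whereas in the other conditions *ABCC3* lay above it in every library. *ABCC2* lay above *ABCC4* in every attached library, at 0.643 to 0.856 against 0.461 to 0.545 TPM, and below it in every AT-0174 library, at 0.424 to 0.484 against 0.572 to 0.605 TPM, and the suspended vehicle libraries overlapped. By CPM divided by effective length, the mean of *ABCC4* over all libraries was above that of *ABCC2*, the reverse of their order by TPM. Both orders rest on few reads, 42 to 68 counts per library for *ABCC2* and 66 to 114 for *ABCC4*. Protein-coding transcripts alone had 0.24, 0.315 and 0.308 TPM for *ABCC2* in attached cells. For *ABCC4* they had 0, 0.406 and 0.347 TPM, so the attached order was not kept in replicates 2 and 3. Of the summed TPM of the 10 transporters, 264 to 316.5 per library, *ABCC11* made up 24 to 27.7% in attached cells, 37 to 39.2% in the suspended vehicle group and 31.7 to 32.6% with AT-0174. The share of *ABCC3* was 15.5 to 18%, 7.24 to 7.94% and 11.5 to 12.1% in the same order.

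**Figure D1:**
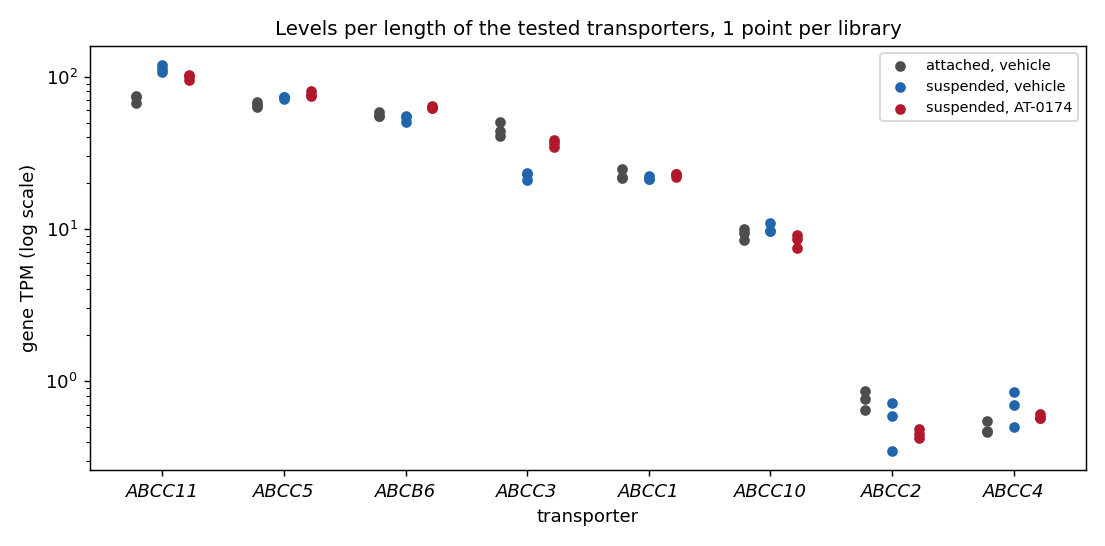
Gene TPM (log scale) of the 8 tested transporters, ordered by mean level, with 1 point per library colored by condition. *ABCC11* is highest at 67.3 to 75 TPM in attached cells and above 90 TPM in suspended cells, and *ABCC2* and *ABCC4* lie below 1 TPM.

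The 2 classical drug pumps were at or near 0 counts. *ABCB1* had 0 counts in all 9 libraries. *ABCG2* had 2 counts in suspended AT-0174 replicate 3 and 0 in the other 8 libraries. A count of 0 allows up to 3 counts, which is 0.0625 to 0.0819 CPM of the library totals and covers counting error only. A difference between conditions was therefore not detectable for either gene at this depth.

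Suspension was compared with attachment, both with vehicle, to ask what the loss of attachment changes. In the transporters it lowered *ABCC3* and raised *ABCC11*, and no other tested member passed the threshold. That is 1 of 8 tested members lower, against a background of 10.8% of all tested genes called lower, and 1 of 8 higher, against 10.4% called higher. The members' median log2 fold change was -0.055, and that of all genes was 0.

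*ABCC3* (ENSG00000108846, chr17:50634777-50692253, plus strand, GRCh38) had 93.9, 96.4 and 103 CPM attached, 53, 51.5 and 54.6 CPM suspended with vehicle, and 82, 85.4 and 79.6 CPM with AT-0174. Each condition formed its own range, with attached cells highest and suspended vehicle cells lowest. Suspension lowered it from 97.9 ± 4.82 to 53 ± 1.57 CPM, a fold of 0.542 (log2 fold change -0.88, SE 0.044, adjusted p = 1.4e-07). By p, it ranked 8 of 15528 genes. On protein-coding transcripts alone the call was lost (log2 fold change -0.62, adjusted p = 0.0714), as described below.

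*ABCC11* (ENSG00000121270, chr16:48165773-48247568, minus strand) had 220, 224 and 224 CPM in attached cells, 336, 337 and 305 in the suspended vehicle group, and 307, 301 and 302 with AT-0174. All suspended libraries lay above all attached libraries, and suspended vehicle replicate 3 was the lowest of its group. Suspension raised it from 223 ± 1.82 to 326 ± 18.1 CPM, a fold of 1.47 (log2 fold change 0.55, SE 0.0376, adjusted p = 2.28e-06). Its exons share 289 bases with *LONP2*, a gene of the opposite strand, which had 14449 to 22965 counts per library and a log2 fold change of 0.28 (SE 0.0291, adjusted p = 7.52e-05) in the same comparison. Whether the counting used strand is not given in the sources used here, so reads of the shared bases may have been assigned to either gene. A long noncoding RNA of the same strand, ENSG00000261538, shares a further 140 bases and had 48 to 93 counts per library.

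*ABCC2*, the apical exporter of conjugated bilirubin in liver, had 1.46, 1.58 and 1.62 CPM in attached cells, 1.09, 1.2 and 1.37 in the suspended vehicle group and 1.39, 1.43 and 1.54 with AT-0174, or 42 to 68 counts per library. Suspended vehicle libraries lay below attached ones without overlap, but the difference did not pass the test (log2 fold change -0.35, SE 0.177, adjusted p = 0.185). Groups without overlap were found for 3 of 8 members, *ABCC2*, *ABCC3* and *ABCC11*, against 38.1% of all tested genes. *ABCB6* (-0.04, adjusted p = 0.474), *ABCC1* (-0.07, adjusted p = 0.196), *ABCC10* (-0.07, adjusted p = 0.513), *ABCC4* (0.15, adjusted p = 0.541) and *ABCC5* (0.01, adjusted p = 0.817) had log2 fold changes short of the threshold.

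**Figure D2:**
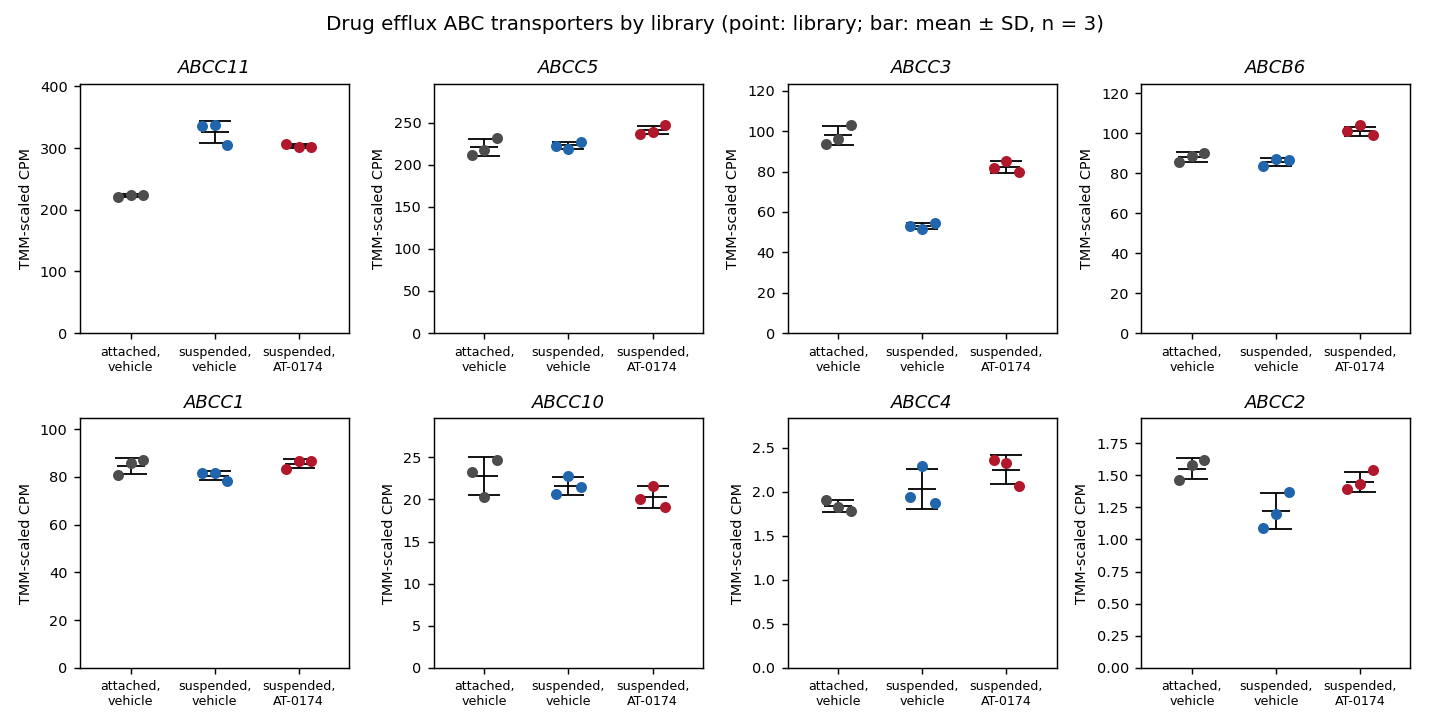
TMM-scaled CPM of the 8 tested transporters, 1 panel per gene, with 1 point per library and bars for mean ± SD (n = 3). *ABCC3* is lowest in suspended vehicle libraries at 51.5 to 54.6 CPM, *ABCC11* is at least 301 CPM in all suspended libraries, and *ABCB6* is highest with AT-0174 at 99.3 to 104 CPM.

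AT-0174 was compared with vehicle in suspended cells to ask what this inhibitor of TDO2 and IDO1 changes. AT-0174 raised *ABCC3* and *ABCB6*, and no tested member was called lower. Whether these changes came through TDO2 and IDO1 was not tested. These 2 of 8 members called higher stand beside a background of 0.522% of all tested genes, and the 0 of 8 called lower beside 0.258%. The members were chosen with earlier results of these data known, so these shares are descriptions. At an unadjusted p under 0.05, edgeR, DESeq2 and limma-voom each counted 4 members higher and 1 lower (*ABCC11*). Unadjusted, all 15528 tested genes gave 708 higher and 693 lower with edgeR, 551 and 533 with DESeq2, and 728 and 711 with limma-voom. After adjustment each tool called 2 members higher and 0 lower. The members' median log2 fold change was 0.13, and that of all genes was 0.001.

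*ABCC3* rose from 53 ± 1.57 to 82.3 ± 2.92 CPM with AT-0174, a fold of 1.55 (log2 fold change 0.63, SE 0.0439, 95% interval 0.54 to 0.73, adjusted p = 7.55e-06), and ranked 8 of 15528 genes by p. The lowest AT-0174 library, at 79.6 CPM, lay above the highest vehicle library, at 54.6 CPM. On protein-coding transcripts alone this call was lost too (log2 fold change 0.48, adjusted p = 0.51).

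*ABCB6* (ENSG00000115657, chr2:219209772-219218994, minus strand), whose promoter is printed above, had 85.6, 88.8 and 90 CPM in attached cells, 83.5, 87.3 and 86.7 in the suspended vehicle group and 101, 104 and 99.3 with AT-0174. The attached and suspended vehicle libraries overlapped, and the 3 AT-0174 libraries lay above both. AT-0174 raised it from 85.8 ± 2.02 to 101 ± 2.16 CPM, a fold of 1.18 (log2 fold change 0.24, SE 0.034, 95% interval 0.17 to 0.32, adjusted p = 0.00373). The call was lost with counts rebuilt from TPM, at a log2 fold change of 0.27 and an adjusted p of 0.0582. *ABCB6* shares 2841 exon bases with ENSG00000284820, a protein-coding gene of the same strand with 138.2 to 280.5 counts per library, so its counts may be split between them. With both summed, the log2 fold change for AT-0174 was 0.24 (SE 0.0343, adjusted p = 0.00366), and the sum was not called in suspension. Alone, ENSG00000284820 was lower in suspension (-0.74, SE 0.181, adjusted p = 0.0129) and not called for AT-0174 (0.32, adjusted p = 0.66).

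*ABCC5* had 212, 217 and 232 CPM in attached cells, 222, 219 and 227 in the suspended vehicle group and 237, 239 and 247 with AT-0174. The AT-0174 libraries lay above all others, but the difference from vehicle did not pass the test (log2 fold change 0.11, SE 0.0358, 95% interval 0.04 to 0.19, adjusted p = 0.258). *ABCC11* had a log2 fold change of -0.11 (SE 0.0372, adjusted p = 0.36), and its vehicle and AT-0174 libraries overlapped. *ABCC1* had 78.4 to 81.6 CPM with vehicle and 83.5 to 86.8 with AT-0174, apart but short of the threshold (0.09, adjusted p = 0.479). Without overlap were 5 of 8 members, *ABCB6*, *ABCC1*, *ABCC2*, *ABCC3* and *ABCC5*, against 15.4% of all tested genes.

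*ABCC2* (log2 fold change 0.25, adjusted p = 0.74), *ABCC4*, an exporter of cyclic nucleotides and prostaglandins (0.14, adjusted p = 0.85), and *ABCC10* (-0.10, adjusted p = 0.776) were short of the threshold. *ABCC4* had 66 to 114 counts per library and 1.78 to 2.36 CPM, and *ABCC10* had 19.1 to 24.7 CPM, with all 3 conditions of *ABCC10* overlapping.

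**Figure D3:**
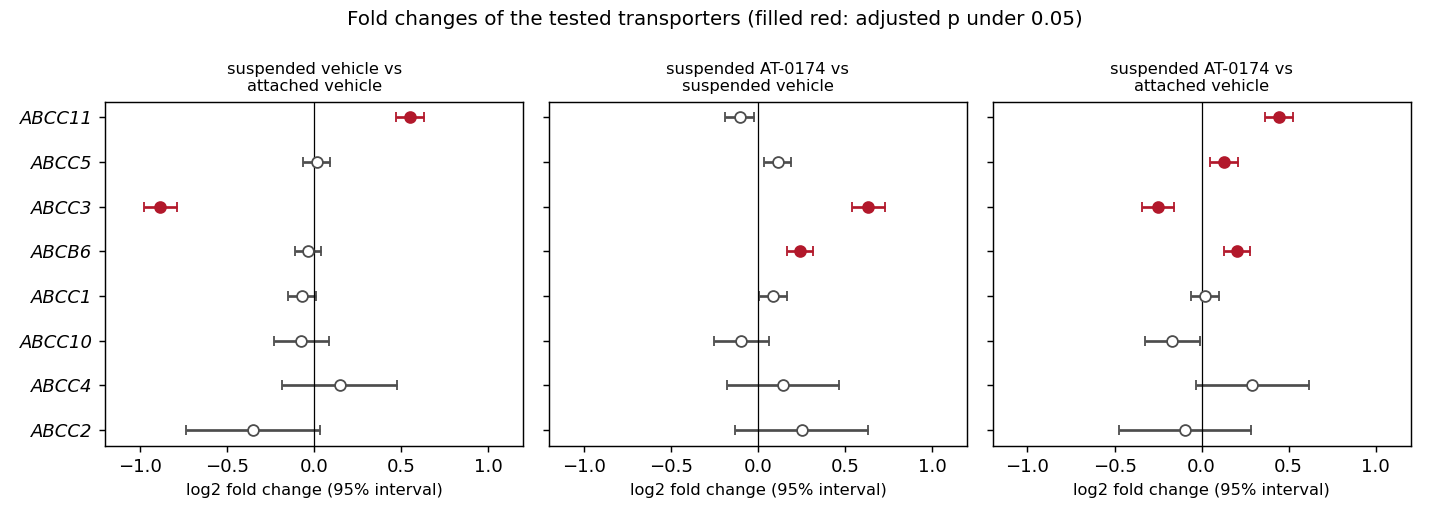
Log2 fold changes (horizontal axis) with 95% intervals of the 8 tested transporters in the 3 comparisons, filled red where the adjusted p was under 0.05. *ABCC3* lies at -0.88 in suspension and at 0.63 with AT-0174, and *ABCC11* at 0.55 in suspension.

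Suspended cells with AT-0174 were set against attached cells only to place the 3 levels in order, since this comparison shares its libraries with the other comparisons. *ABCC3* remained below attached cells with AT-0174 (log2 fold change -0.25, SE 0.0428, adjusted p = 0.00156), so that its 3 conditions differed from each other in every pair by gene totals. On protein-coding transcripts alone this difference was -0.14 (adjusted p = 0.68), and the other pairs were not called either, as described below. *ABCC11* was higher than in attached cells (0.45, SE 0.0376, adjusted p = 1.07e-05), as were *ABCB6* (0.20, SE 0.0341, adjusted p = 0.00139) and *ABCC5* (0.13, adjusted p = 0.0212). The *ABCB6* call was lost with counts rebuilt from TPM (0.11, adjusted p = 0.17). The *ABCC5* call was lost without attached replicate 1 (adjusted p = 0.0851), attached replicate 2 (0.0673) or suspended AT-0174 replicate 3 (0.0792), and with protein-coding transcripts alone (0.111). The 3 members called higher and 1 called lower of 8 stand beside 12.2% and 11.8% of all tested genes, and 5 of 8 did not overlap, against 39.5%.

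The transcripts behind these gene totals differed in kind, by the transcript types of GENCODE release 44. On average, the protein-coding share of a gene's TPM was lowest in attached cells for every tested member but *ABCC5*. How this share moved over all genes was not measured, so the pattern cannot be called particular to the transporters. Between libraries it ran from 0 to 100% for *ABCC4* and from 28.1 to 89.8% for *ABCC2*, both at low counts. In attached, suspended vehicle and AT-0174 cells the share was 75.2%, 83% and 82.6% for *ABCC1* and 19%, 24.7% and 22.1% for *ABCC3*. For *ABCB6* it was 60.6%, 74% and 72.4%, and for *ABCC5* 98.2%, 96.8% and 95.1%. The most abundant *ABCC3* transcript, ENST00000505699, is annotated as a target of nonsense-mediated decay and had a mean share of 33% of the gene's TPM, and the protein-coding ENST00000285238 had 16.9%. ENST00000505699 had 13.4, 12.2 and 13 TPM in attached cells, 7.24, 9.91 and 6.25 in the suspended vehicle group and 12.3, 14.7 and 11.5 with AT-0174. Its suspended vehicle libraries lay below all others. ENST00000285238 had 7.4, 5.93 and 5.13 TPM, 5.09, 2.8 and 5.83 TPM, and 6.47, 4.93 and 6.19 TPM in the same order, and the conditions overlapped.

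All 4 protein-coding transcripts of *ABCC3* summed to 8.44 ± 1.52 TPM in attached cells, 5.48 ± 1.81 in the suspended vehicle group and 8.05 ± 1.42 with AT-0174. The 14 of other types summed to 36.8 ± 6.54, 16.9 ± 2.61 and 28.3 ± 0.534 TPM. When all genes were counted over protein-coding transcripts alone, a choice made after these values were seen, neither *ABCC3* call was kept. Its log2 fold change was then -0.62 for suspension (SE 0.215, adjusted p = 0.0714) and 0.48 for AT-0174 (SE 0.214, adjusted p = 0.51). The directions were those of the gene totals, and the SE was 0.044 and 0.0439 there. Salmon divides reads between overlapping transcripts by estimate, so the split within a gene is less certain than its total.

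In *ABCC11*, ENST00000394748 and ENST00000356608 had mean shares of 57.2% and 22.6%, both within a gene whose protein-coding transcripts made up 93.6%, 96.3% and 97.5% of its TPM in attached, suspended vehicle and AT-0174 cells. The call of *ABCC11* held on protein-coding transcripts alone (0.53, SE 0.0374, adjusted p = 1.61e-05). In *ABCB6*, the protein-coding ENST00000265316 had 65.5% and the intron-retaining ENST00000485773 12.5%. Its protein-coding TPM was 34 ± 1.2 in attached cells, 39.6 ± 1.57 in the suspended vehicle group and 45.5 ± 1.24 with AT-0174, whereas its other types had 22.2 ± 3.2, 13.9 ± 1.4 and 17.4 ± 0.551 TPM. The AT-0174 call of *ABCB6* held on protein-coding transcripts (0.24, SE 0.0338, adjusted p = 0.00658), and its log2 fold change in suspension was then 0.08 (adjusted p = 0.142) in place of -0.04.

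In *ABCC5*, ENST00000334444 had a mean share of 66.1% and ENST00000427120 of 12.2%. In *ABCC1*, these were ENST00000399410 (72.8%) and the intron-retaining ENST00000574761 (16.3%), and in *ABCC10* ENST00000372530 (46.3%) and ENST00000463024 (14.8%). *ABCC2* and *ABCC4* were led by ENST00000647814 (57.7%) and ENST00000645237 (71.5%), at counts too low for a steady split between libraries.

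**Figure D4:**
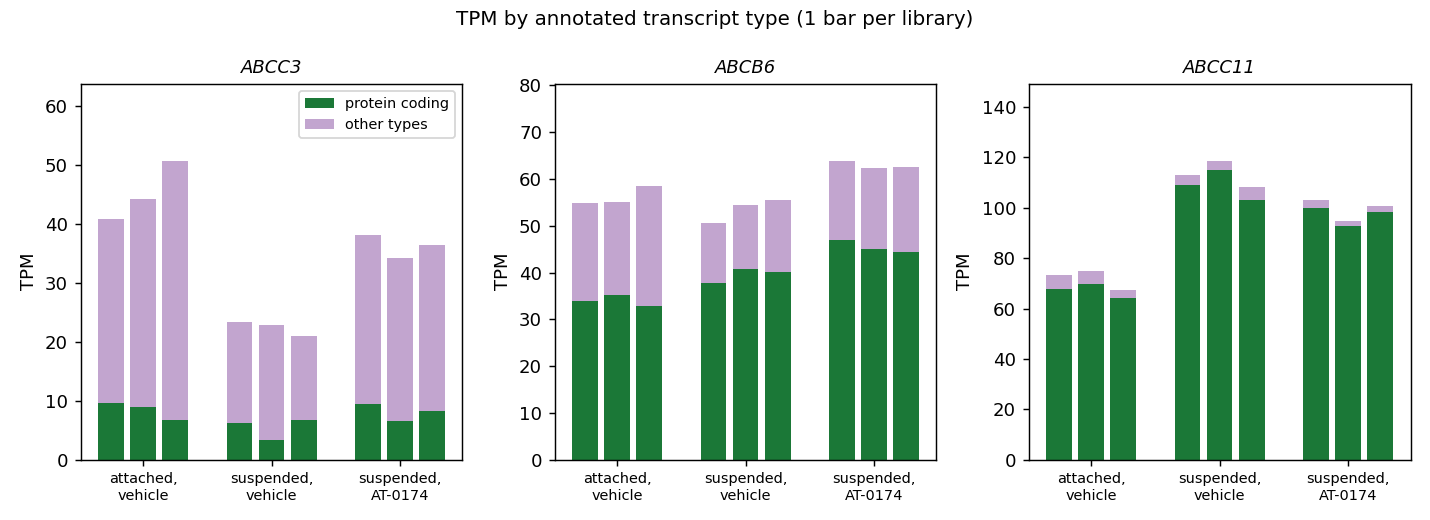
TPM of *ABCC3*, *ABCB6* and *ABCC11* by annotated transcript type, with 1 stacked bar per library, green for protein-coding transcripts and violet for all other types. Other types make up most of *ABCC3*, with means of 36.8, 16.9 and 28.3 TPM, and protein-coding transcripts make up at least 93.6% of *ABCC11* on average.

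The genes most like the 2 transporters that AT-0174 raised were found by Pearson correlation of log2 CPM over the 9 libraries, among 12518 genes. The libraries share their conditions, so these values are descriptions. Among the nearest to *ABCB6* were *OSGIN1* (r = 0.957) and *FTH1* (0.955), which encodes the heavy chain of the iron store ferritin and has processed copies that could share its reads. *OSGIN1* had 18.7 to 20.4 CPM in attached cells, 17 to 19 in the suspended vehicle group and 26.6 to 28.7 with AT-0174, the order of conditions found for *ABCB6*. Nearest to *ABCC3* were *ARHGEF37* (0.965), *ARRDC1* (0.953) and *NPRL2* (0.953). *ARHGEF37* had 20.2 to 21.6, 14.1 to 15.4 and 18.5 to 19.2 CPM in the same order of conditions.

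Around the drug pumps lie other ABC transporters, the enzymes that conjugate their substrates, the carriers that take drugs up, the factors that control transport genes and the proteins that place pumps at the membrane. Of 38 other ABC transporters 23 were tested, and in suspension 3 were higher and 4 lower, with a median log2 fold change of -0.04, beside 10.4% higher and 10.8% lower among all tested genes. Higher were *ABCA12* (0.29), a lipid transporter of keratinocytes, *ABCE1* (0.22), a ribosome recycling factor, and *ABCC12* (0.46), the neighbour of *ABCC11*. Lower, among others, were the lipid transporter *ABCA7* (-0.62), the retinal transporter *ABCA4* (-1.62, from 0.973 to 0.314 CPM) and *ABCC6* (-0.33), which has pseudogene copies that could share its reads. With AT-0174, edgeR called 0 of the 23 in either direction, with 1 higher and 5 lower at an unadjusted p under 0.05. Of all 15528 tested genes edgeR called 0.522% higher and 0.258% lower, with 708 higher and 693 lower unadjusted. DESeq2 called 2 of the 23 lower and limma-voom 0, beside 106 and 43 of all tested genes. With no filter on low counts edgeR called 3 lower, and 1 with only the 6 libraries of the comparison. Calls over all genes in either direction were then 499 of 29181 and 125 of 15221.

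Of 40 conjugating enzymes 21 were tested, and in suspension 5 were higher and 3 lower, with a median of 0.04, beside the same 10.4% and 10.8% of all tested genes. Higher were, among others, *TPMT* (0.17), a thiopurine methyltransferase, *MGST2* (0.22) and *GSTO1* (0.21), both glutathione transferases. The count of 5 fell to 1 without attached replicate 3, suspended vehicle replicate 2 or suspended vehicle replicate 3, and to 2 without attached replicate 1. It was 3 without attached replicate 2 or suspended vehicle replicate 1, and 0 with counts rebuilt from TPM. With the replicate block it was 2, and with only the 6 libraries of the comparison 3. Calls over all genes, both directions together, were 3297 in the main fit. They were 1935, 1951 and 2305 without attached replicate 3, suspended vehicle replicate 2 or suspended vehicle replicate 3, and 2693 without attached replicate 1. They were 2686 and 2673 without attached replicate 2 or suspended vehicle replicate 1, and 1726 with counts rebuilt from TPM. The replicate block gave 3250 and the 6 libraries 3087. Lower were *GSTM4* (-0.27), *GSTT2B* (-0.38) and *GSTM2* (-1.07, from 1.17 to 0.558 CPM), glutathione transferases with close paralogs, and their count fell to 1 without attached replicate 3 or suspended vehicle replicate 3. AT-0174 raised 1 of the 21, beside 0.522% of all tested genes called higher. This was *MGST1*, a membrane-bound glutathione transferase, which rose from 121 ± 1.46 to 148 ± 4.36 CPM (0.29, SE 0.0362, adjusted p = 0.00169). Its call was lost with counts rebuilt from TPM. No conjugating enzyme was called lower by edgeR, DESeq2 or limma-voom with AT-0174, and 0 were lower at an unadjusted p under 0.05. Of all 15528 tested genes edgeR called 0.258% lower, and 693 were lower unadjusted.

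Of 37 uptake carriers 13 were tested, with a median log2 fold change of -0.13 in suspension, where 2 were higher and 3 lower beside 10.4% and 10.8% of all tested genes. The nucleoside carrier *SLC29A1* (0.27) and the folate carrier *SLC19A1* (0.19) were higher. The prostaglandin carrier *SLCO2A1* fell from 28.1 to 9.21 CPM (-1.61, SE 0.0641, adjusted p = 2.59e-08), and *SLC29A2* (-0.28) and *SLCO4A1* (-0.18) were lower. The count of higher carriers was 1 without attached replicate 1, attached replicate 3 or suspended vehicle replicate 3. Calls over all genes were then 2693, 1935 and 2305 in place of 3297.

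Of 24 transcriptional regulators 19 were tested, with a median of -0.02 in suspension, where 4 were higher and 2 lower beside 10.4% and 10.8% of all tested genes. Higher were, among others, *KEAP1* (0.18), the inhibitor of NRF2, *FOXO3* (0.18) and *NR1H2* (0.12), and lower were *PPARA* (-0.51) and *RXRB* (-0.20), both nuclear receptors. The 4 called higher were 2 without attached replicate 3, where calls over all genes were 1935 in place of 3297. Named after their values were seen, *NFE2L2*, which encodes NRF2, had 109 ± 4.55, 110 ± 1.08 and 109 ± 3.76 CPM, and *AHR*, the aryl hydrocarbon receptor, 11.7 ± 0.265, 11 ± 0.504 and 10.1 ± 0.315 CPM in attached, suspended vehicle and AT-0174 cells. Neither passed the test for suspension or for AT-0174 against vehicle, and *AHR* was lower in AT-0174 than in attached cells (log2 fold change -0.21, SE 0.0618, adjusted p = 0.0255).

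Of 14 genes of apical anchoring and trafficking 11 were tested, and in suspension 3 were higher, *RAB11FIP1* (0.28), *RAB11A* (0.22) and *EZR* (0.12), which act in recycling endosomes and in linking membrane proteins to actin, and 0 lower by edgeR, DESeq2 or limma-voom, nor at an unadjusted p under 0.05. Among all tested genes 10.4% were higher and 10.8% lower. With AT-0174, edgeR called 0 uptake carriers, 0 regulators and 0 of the apical genes. At an unadjusted p under 0.05 edgeR counted 0, 0 and 1 of them, the last one higher. DESeq2 called 0, 0 and 1, and limma-voom 0 of each. Of all 15528 tested genes edgeR called 0.522% higher and 0.258% lower with AT-0174, and counted 708 higher and 693 lower unadjusted. DESeq2 called 133 higher and 106 lower of all tested genes, and limma-voom 84 and 43. With counts rebuilt from TPM, 1 other ABC transporter, 1 uptake carrier and 2 regulators were called higher in suspension and 0 regulators lower. Calls over all genes in suspension were then 1726 in place of 3297.

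**Figure D5:**
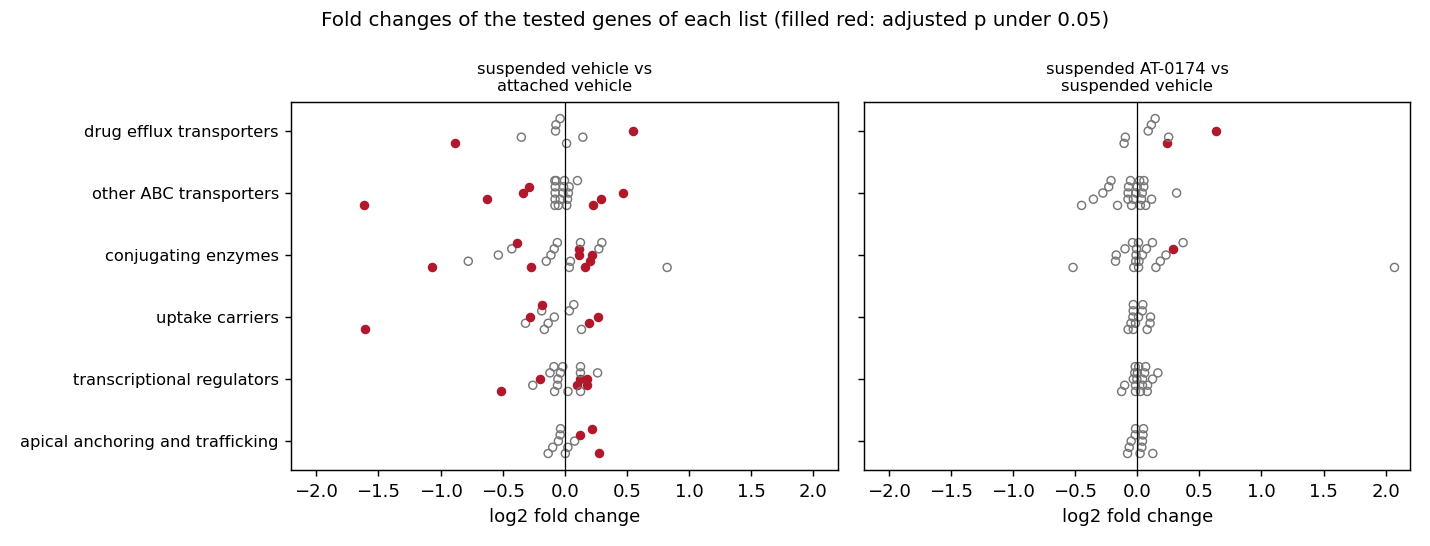
Log2 fold changes (horizontal axis) of every tested gene of the drug efflux transporters and of the 5 surrounding lists, in suspension (left) and with AT-0174 (right), filled red where the adjusted p was under 0.05. With AT-0174 the called genes are *ABCC3* and *ABCB6* among the efflux transporters and *MGST1* among the conjugating enzymes.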

How the data were processed

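The 9 libraries of MDA-MB-453 cells were grouped by their labels. Per the labels, the submitters named bcl2fastq 2.20.0.422, cutadapt 3.4, Trim Galore 0.6.7, STAR 2.7.9a, Salmon 1.10.1 and R 4.2.2, with build GRCh38. The study names a Universal Plus mRNA kit and the labels a SMARTER kit, and which was used could not be told. The estimated counts per gene were made by the authors with Salmon, with no normalization, and equal the sums over 236920 transcripts in each library. Transcript TPM was also deposited by the authors and was summed here by gene.

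Estimated counts were rounded, filtered with filterByExpr, scaled by TMM and fitted in edgeR 4.0.16 (R 4.3.3; quasi-likelihood test, all 9 libraries, condition as the only term), with Benjamini–Hochberg adjustment over 15528 genes and a threshold of 0.05. SE was taken as the size of the log2 fold change over the root of the F statistic. On simulated data with 200 changed genes, 37.5%, 69.5% and 77.5% were recovered at 1.2-, 1.5- and 2-fold changes in suspended against attached cells, and 37%, 69% and 77% in AT-0174 against vehicle. Of the calls, 4.32% to 10.8% were unchanged genes, above the threshold of 0.05 in all settings but the 2-fold change in suspension. The changed genes were drawn from all tested genes and were fewer than the 3297 called in suspension, so these rates do not describe the members. Libraries held 36649997 to 48019126 counts. Limits for a count of 0 use 3 counts, and these limits cover counting error only. The 95% intervals of fold changes come from the quasi-likelihood fit and include the spread between libraries.

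The members, gene lists and tests were chosen with earlier results of these data known. The genes named are the 10 members, up to 3 called genes of each list per direction with the smallest p in the first comparisons, the 3 genes most correlated with each member called for AT-0174 (at least 50 counts on average, 0.5 added to CPM before log2; 1 of these is not reported here), and the 2 transcripts of highest mean TPM per member. *LONP2*, ENSG00000261538 and ENSG00000284820 are named because they share exons with members. Positions and transcript types are from GENCODE release 44 (GRCh38) and promoters from RefSeq. The settings varied were the tool (DESeq2 1.42.0, or limma-voom with limma 3.58.1), the scaling (size factors of DESeq2 in edgeR), the filter (none, or 10 counts as a minimum in all libraries), the samples fitted (6 libraries of a comparison), a replicate block, counts rebuilt from TPM, and each library left out. Counting protein-coding transcripts alone and *ABCB6* summed with ENSG00000284820 were added after seeing the data. Figures were drawn with matplotlib 3.10.9.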

Additional observations from a re-analysis of the deposited data

How the results depend on the processing

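In 14 of 14 alternatives other than the one on protein-coding transcripts, both *ABCC3* calls and the *ABCC11* call in suspension were kept, over log2 fold changes of -1.11 to -0.84 for *ABCC3* (largest adjusted p = 5.48e-05) and 0.53 to 0.60 for *ABCC11* (0.000109) in suspension, and 0.61 to 0.74 for *ABCC3* with AT-0174 (0.00234). Counting protein-coding transcripts alone left 0 members lower in suspension, 1 higher with AT-0174 (*ABCB6*) and 0 lower in AT-0174 against attached cells, and turned the sign of uncalled changes in suspension for *ABCC5* (-0.02), *ABCC10* (0.05) and *ABCB6* (0.08) and, against attached cells, for *ABCC2* (0.18). It also moved the uncalled *ABCC4* from 0.15 to 0.86 in suspension and from 0.29 to 1.05 against attached cells, where attached replicate 1 had 0 protein-coding counts, and ended the *ABCC5* call against attached cells (0.09, adjusted p = 0.111). Counts rebuilt from TPM, which allow for transcript length, gave 2 members lower in suspension (*ABCB6* at -0.17, adjusted p = 0.0491, with *ABCC3*) and 1 higher with AT-0174, and turned the sign of *ABCC10* in suspension (0.02), *ABCC2* (-0.24) and *ABCC4* (-0.17) with AT-0174 and *ABCC1* (-0.06) against attached cells. With each library left out, members called lower in AT-0174 against attached cells ranged from 1 to 2, the second being *ABCC10* without attached replicate 2 (-0.24, adjusted p = 0.0235). *ABCC5* ranged from -0.01 to 0.05 in suspension and *ABCC1* from -0.01 to 0.04 in AT-0174 against attached cells, both negative without attached replicate 1. The cause of these shifts was not tested. Libraries of a condition differed unevenly, by the chi-square per gene between 2 libraries, which is larger where they differ more. It was 3.1 for attached replicates 1 and 2, and 11.4 and 12.4 for their pairs with replicate 3. With AT-0174 it was 6.98 for replicates 2 and 3, and 17.8 and 9.59 for their pairs with replicate 1. In the suspended vehicle group it was 4.75 to 5.83. Calls over all genes in suspension, with AT-0174 and against attached cells were 3297, 121 and 3724 of 15528 in the main fit. They were 2052, 91 and 2604 of 12270 with protein-coding transcripts alone, and 1726, 35 and 2076 of 15600 with counts rebuilt from TPM. Libraries of the same replicate number in different conditions showed little in common, as their deviations from the condition means correlated between -0.082 and 0.093. The labels only number the replicates, so whether the libraries were paired by design is not known. A replicate block called 1 member higher and 1 lower in suspension, 2 higher and 0 lower with AT-0174, and 3 higher and 1 lower against attached cells, as without it. Over all genes the block gave 3250, 146 and 3677 calls. Depth limits *ABCB1*, *ABCG2*, *ABCC2* and *ABCC4*, which had at most 114 counts in a library.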
